A study of Mus musculus with 2 samples.

Results

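The basal keratin genes Krt5, Krt14, Krt15 and Krt17 and the transcription factor gene Trp63 were followed through 2 single-cell libraries of luminal-labelled mouse mammary tumors. They were taken by symbol, 5 of the 32285 genes in the matrices, and all 5 were among the 16037 genes that the authors kept. For each mouse and each of the 18 clusters of the deposited cell annotation, the level of a gene was its count of unique molecular identifiers (UMIs, 1 per captured transcript) per 1000000 UMIs of that cluster (CPM), and its detection was the share of cells with at least 1 UMI. The genes behaved unlike each other. Krt5 was found almost entirely in cluster 6. Krt14, Krt17 and Trp63 were highest there in each mouse but were also carried by scattered cells of other clusters. Krt15 was spread over most clusters and was highest in cluster 6 in 1 of the 2 mice.

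Keratins form the intermediate filaments of epithelial cells as pairs of a type I and a type II chain. In the basal layer of skin and of the mammary duct the type II keratin 5 pairs with the type I keratin 14, and in some basal cells with keratin 15, while luminal cells carry keratins 8, 18 and 19. Keratin 17 is a type I keratin of hair follicles and other appendages and of injured epithelium, and it is also made by basal mammary cells. Trp63 encodes p63, a relative of p53 that stratified and basal epithelia require and that activates keratin 5 and keratin 14 genes in them.

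Both mice carried MMTV-PyMT, in which the mouse mammary tumor virus promoter drives the polyoma middle T oncogene in mammary epithelium, together with Krt8-CreERT and Rosa26-mTmG, and the methods give a C57Bl/6 J background for the MMTV-PyMT line. Krt8-CreERT is a recombinase that the promoter of the luminal keratin gene Krt8 drives and tamoxifen activates, and the reporter then marks the cell and its descendants with green fluorescent protein (GFP), so that only cells whose ancestor used that promoter at the time of treatment are followed. Each mouse was given tamoxifen at 150 mg/kg on 3 days in week 5 and 3 days in week 6, and tumors were taken at 1.5 cm3. Cells that were GFP+, DAPI-, CD31- and CD45- were sorted, gates set against dead, endothelial and leukocyte cells, and 1 library of transcript 3′ ends was made per mouse. All cells share this genotype and treatment, so the comparisons below are between groups of cells within the 2 mice.

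The annotation held 3829 cells with 58629906 UMIs in mouse 1 and 5330 cells with 56972644 UMIs in mouse 2. The median depth was 15014 UMIs per cell in mouse 1 and 9470 in mouse 2, so an equal level was more easily detected in mouse 1. Cluster 6 held 260 and 167 cells with medians of 12186 and 8146 UMIs. The libraries shared 20 cell barcodes, 9 of them among annotated cells.

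The type I keratin genes lie together on chromosome 11 of GRCm38, all on the minus strand: Krt15 from 100131758 to 100135928, Krt14 from 100203162 to 100207548 and Krt17 from 100256217 to 100261029. Krt5 lies with the type II genes on chromosome 15, from 101707070 to 101712898 on the minus strand. Trp63 spans 208340 bases of chromosome 16, from 25683763 to 25892102 on the plus strand. Reads came from the 3′ end, so the p63 forms that start at different promoters were counted together. No stretch of 90 bases in the last 500 bases of any of these genes' exons was found in another gene, so their reads were not ambiguous between keratins.

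The sequence upstream of Krt5 is shown because Krt5 was the member closest to being restricted to cluster 6. It is the stretch at chr15:101712906-101713155 of GRCm38.p6 from RefSeq, read on the minus strand. Capitals mark CAGCTG, the only form of the E-box searched, and other forms, such as the CAGGTG in this window, are not marked.
Krt5 promoter: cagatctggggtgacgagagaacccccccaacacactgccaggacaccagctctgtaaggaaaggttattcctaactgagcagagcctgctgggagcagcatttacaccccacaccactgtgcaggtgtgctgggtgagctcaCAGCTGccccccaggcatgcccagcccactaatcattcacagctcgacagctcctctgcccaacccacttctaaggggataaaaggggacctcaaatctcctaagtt
The E-box is a short motif read by basic helix-loop-helix factors. The marked CAGCTG began 107 bases before the RefSeq start of the gene, which adjoins this window and lies slightly upstream of the GENCODE start given above. CAGCTG occurs on either strand in 12.8% of 27025 mouse promoters of this length. Other motifs, searched on both strands only in the letters given below, were not found in this window in that form. They were a TATA box (TATAAA, held by 12.97% of promoters), a site of AP-1 (TGANTCA, 6.87%), a GC box (GGGCGG, 32.9%), a core of SOX factors (ACAAT, 28.4%) and a site of AP-2 (GCCNNNGGC, 13.6%). These are matches of letters only, and other forms, such as the ATAAAA near the end of the window for the TATA box, were not searched.

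In cluster 6, Krt14 stood at 742 CPM in mouse 1 and 1139 CPM in mouse 2 (2532 and 1811 UMIs). Krt17 stood at 807 and 413 CPM (2754 and 657 UMIs), so that its order with Krt14 differed between the mice. Krt5, the pairing partner of keratin 14, stood at 167 and 160 CPM (569 and 255 UMIs) and was nearly level between the mice. Trp63 had 30.2 and 54.7 CPM (103 and 87 UMIs). Krt15 had 92.4 CPM in mouse 1 and 18.2 CPM in mouse 2 (315 and 29 UMIs), and in each mouse much of this came from 1 cell, without which the values were 68.9 and 6.29 CPM. The means over the mice were 941 ± 280.3 CPM for Krt14, 610.3 ± 279 for Krt17, 164 ± 4.58 for Krt5, 55.3 ± 52.4 for Krt15 and 42.5 ± 17.3 for Trp63 (SD, n = 2 mice). A sum over cells cannot tell more cells with a gene from more of its RNA per cell, and the shares of cells below were counted for that reason.

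**Figure D1:**
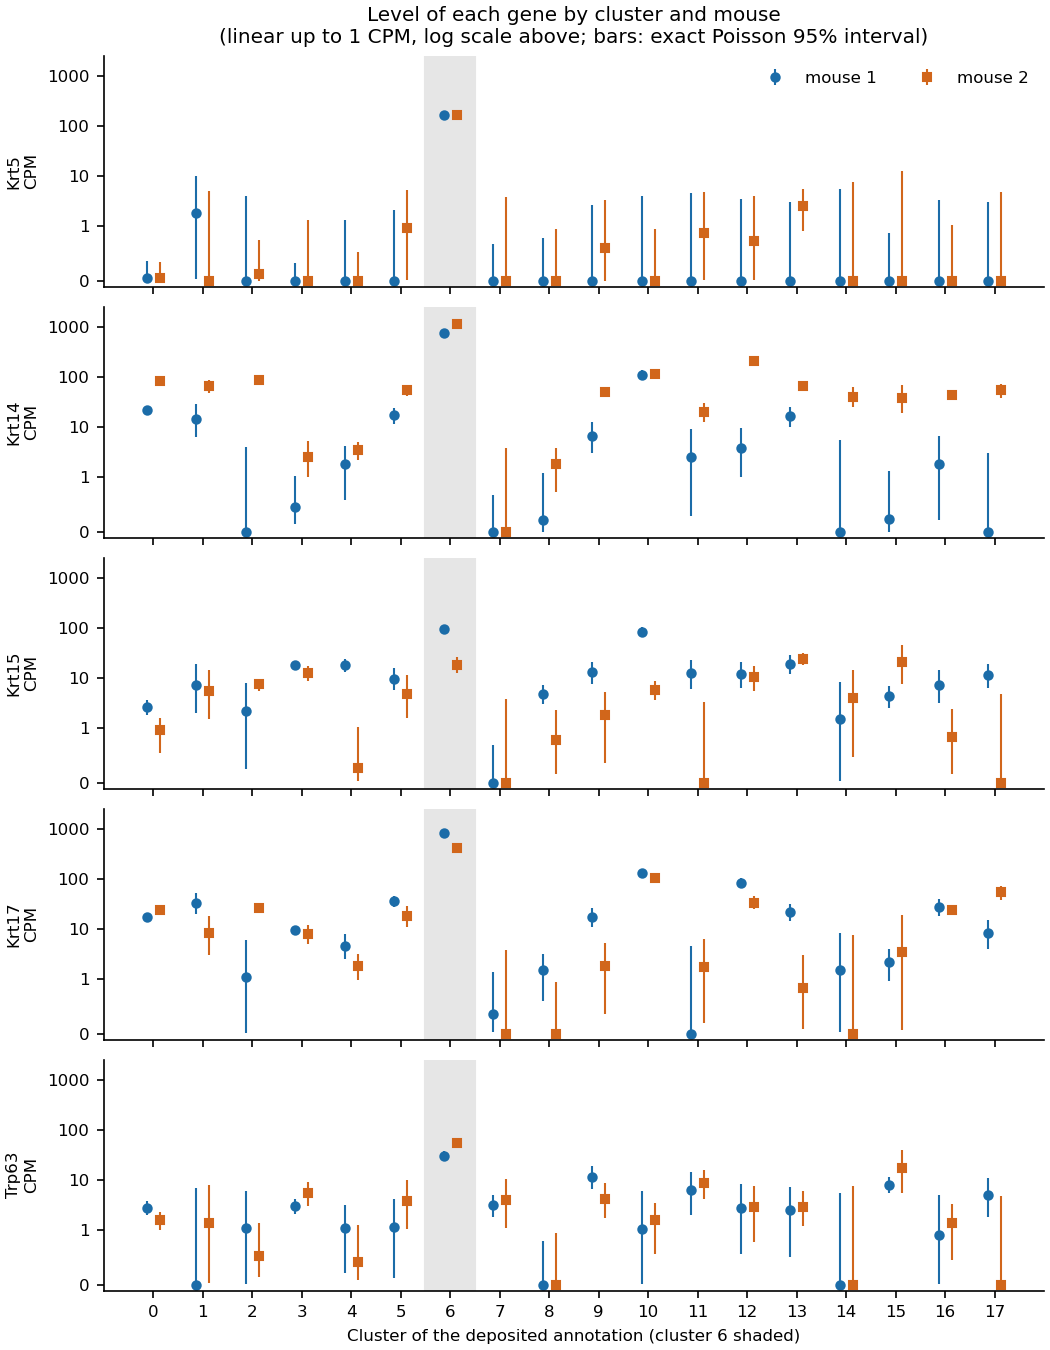
Level of Krt5, Krt14, Krt15, Krt17 and Trp63 (CPM, linear up to 1 and log scale above) in each of the 18 clusters, for mouse 1 (circles) and mouse 2 (squares), with exact Poisson 95% intervals that cover counting error only. Cluster 6 is shaded: Krt5 stands there at 167 and 160 CPM and at most at 2.48 CPM elsewhere, while Krt14 reaches 205 CPM in cluster 12 of mouse 2.

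The plot of levels by cluster shows how much of each gene lay in cluster 6. Of all Krt5 UMIs of annotated cells, 99.6% in mouse 1 and 95.5% in mouse 2 came from that cluster. For Krt14 the share was 83.2% in mouse 1 and 35.5% in mouse 2, and for Krt17 it was 78.0% and 35.4%. Trp63 had 38.3% and 46.8% of its UMIs in cluster 6, and Krt15 had 37.9% and 11.4%. Ordered by mean level, cluster 6 came first for all 5 genes, and its 2 values lay above both values of the next cluster for Krt5, Krt14, Krt17 and Trp63. For Krt15 they overlapped with those of cluster 10, at 82.8 and 5.64 CPM.

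About as many cells of cluster 6 lacked these genes as had them. In mouse 1, 143 cells (55%) lacked a UMI of all 5, as did 80 (47.9%) in mouse 2, and UMIs of all 5 were found in 5 cells and 1 cell. Krt14 was detected in 29.6% and 43.7% of cluster 6 cells, Krt17 in 33.8% and 28.7%, Trp63 in 19.6% and 18.6%, Krt5 in 18.5% and 17.96%, and Krt15 in 6.92% and 4.19%. Cells were also thinned at random to 2000 UMIs, and cells with fewer were left out, which kept 245 and 157 cells of cluster 6. Krt14 was then found in 21.6% of cells of mouse 1 (exact Clopper-Pearson 95% interval 16.6 to 27.3%) and 38.2% of mouse 2 (30.6 to 46.3%). These intervals do not overlap. Thinned shares of Krt17 were 29.4% (23.8 to 35.5%) and 22.9% (16.6 to 30.3%), and those of Krt5 were 11.8% and 14.01%. Intervals here cover counting error only.

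The keratins were concentrated in a minority of strongly expressing cells, whereas Trp63 was not. Cells with 5 or more UMIs of the gene held 98.4% and 97.9% of the Krt14 UMIs of cluster 6 (54 and 56 cells) and 98.4% and 96.0% of its Krt17 UMIs (70 and 32 cells). For Krt5, 32 and 24 such cells held 92.8% and 94.5%. The largest count in 1 cell was 225 UMIs for Krt14 and 189 for Krt17, both in mouse 1. Trp63 reached 5 UMIs in only 2 and 4 cells, which held 21.4% and 47.1% of its UMIs. A cell in which Trp63 was detected held 2.02 UMIs of it on average in mouse 1, against 32.9 for Krt14, so absence of Trp63 from a cell was weakly determined at this depth.

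**Figure D2:**
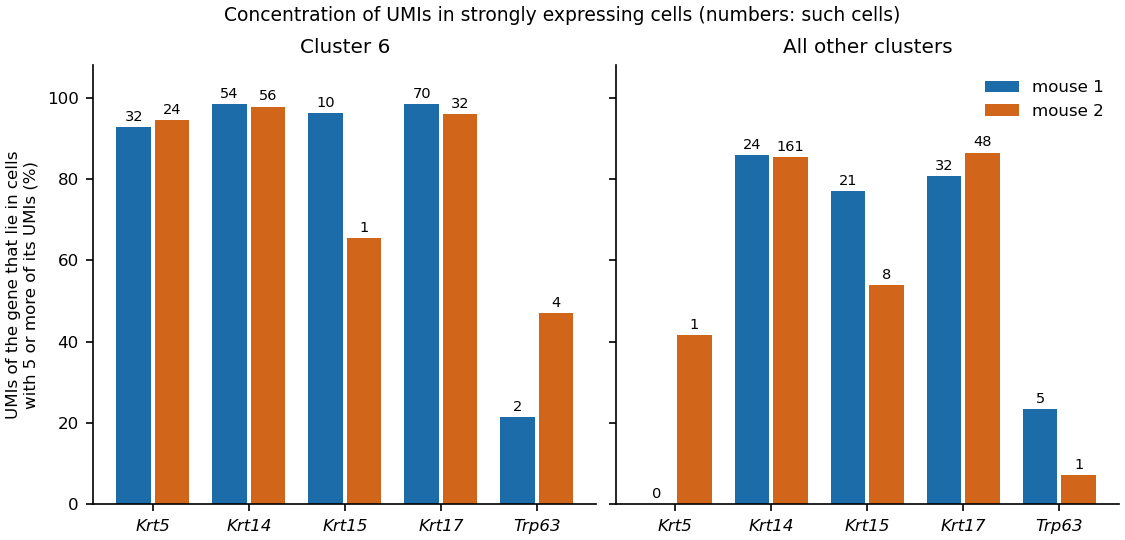
Share of each gene's UMIs that lies in cells with 5 or more of its UMIs (percent), in cluster 6 (left) and in all other clusters (right), for mouse 1 and mouse 2, with the number of such cells above each bar. Outside cluster 6, 24 and 161 cells hold 86.0% and 85.5% of the Krt14 UMIs, while Krt5 has 0 such cells in mouse 1 and 1 in mouse 2.

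Within cluster 6 the keratins Krt5, Krt14 and Krt17 were found together at 2000 UMIs per cell. Of the cells with Krt5, 82.8% in mouse 1 (64.2 to 94.2%) and 86.4% in mouse 2 (65.1 to 97.1%) also had Krt14, against 13.4% and 30.4% of the cells without Krt5. Krt17 was found in 81.1% of Krt14 cells of mouse 1 (68.0 to 90.6%) and in 15.1% of cells without Krt14. In mouse 2 these shares were 46.7% (33.7 to 60.0%) and 8.25%. Trp63 was less clear. Before thinning it was detected in 50% of the Krt5 cells of each mouse, and in 12.7% and 11.7% of the cells without Krt5. After thinning it was in 10.3% of Krt5 cells of mouse 1 (2.19 to 27.4%) and 6.48% of the others, with overlapping intervals, and in 27.3% (10.7 to 50.2%) and 3.70% in mouse 2. In thinned Krt14 cells Trp63 was in 5.66% against 7.29% of the others in mouse 1, and in 13.3% against 3.09% in mouse 2.

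Krt5, Krt15, Krt17 and Trp63 followed the contractile cells of cluster 6, and Krt14 did so less by level and, in mouse 2, by share of cells. Cells with UMIs of 3 or more myoepithelial contractile genes, such as the smooth muscle actin and myosin genes Acta2 and Myh11, numbered 188 in mouse 1 and 90 in mouse 2. Krt5 stood at 209 and 236 CPM in these cells and at 0 and 21.3 CPM in the 72 and 77 others. Krt17 stood at 1010 and 630.4 CPM against 13.01 and 16.0, and Trp63 at 36.4 and 80.7 against 5.78 and 7.11. Krt14 stood at 873 and 1327 CPM in contractile cells, but the others kept 230 and 795 CPM of it. It was detected in 38.3% and 56.7% of contractile cells, and in 6.94% (5 cells) and 28.6% (22 cells) of the others. Krt17 was detected in 5.56% and 5.19% of the others. All Krt15 UMIs of cluster 6 were in contractile cells, with 116 and 28.2 CPM. The rule of 3 genes is met more easily by deeper cells. It was also met by 30.7% and 23.6% of cells without Krt14 outside cluster 6.

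Cluster 6 also held cells with fibroblast genes, and the members were lower in most of them. UMIs of 3 or more of 10 fibroblast genes were found in 29 cells of mouse 1 and 30 of mouse 2. In mouse 1 these cells held no Krt5 or Krt15 UMI and 2.32 CPM of Krt14, against 191, 106 and 849.6 CPM in the other 231 cells. In mouse 2 Krt14 stood at 429 CPM in them and 1282.5 CPM in the other 137 cells, while Krt5 stood at 187 and 155 CPM and Trp63 at 56.0 and 54.4. The members' levels in cluster 6 were therefore as high or higher without the fibroblast-gene cells, except Krt5 and Trp63 of mouse 2, which moved by little.

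Against the other tumor cells, those annotated to neither cluster 6 nor cluster 13, all 5 genes were higher in cluster 6. UMIs were summed per mouse and group and tested with edgeR's quasi-likelihood test with the mouse as block, which called 12.1% of 14350 genes higher and 6.63% lower at an adjusted p under 0.05. Because the clusters were made from the same expression values, the test asks only whether both mice show a difference. Krt5 had 2 and 6 UMIs in the 3496 and 4971 other tumor cells, or 0.0370 and 0.113 CPM, and differed by 10.98 on the log2 scale (SE 0.34, adjusted p = 5.6e-07, edgeR). Krt14 had 9.13 and 59.2 CPM there and differed by 5.26 (SE 0.49, adjusted p = 0.00017, edgeR). Krt17, with 13.9 and 22.6 CPM, differed by 5.00 (SE 0.41, adjusted p = 7.8e-05), and Trp63, with 3.02 and 1.74 CPM, by 4.08 (SE 0.38, adjusted p = 0.00017). Krt15, with 9.15 and 3.17 CPM, differed least, by 2.98 (SE 0.27, adjusted p = 0.00015, edgeR). Every gene was higher in cluster 6 in both mice. Krt14 lost its call without cluster 6 of mouse 2 (adjusted p = 0.073, edgeR). Krt15 lost its call without cluster 6 of mouse 1 (log2 fold change 1.43, adjusted p = 0.32, edgeR), without the other tumor cells of either mouse (0.11 and 0.22) and without the mouse block (0.11).

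Against cluster 13, the comparison that the study made, 4 of the 5 genes were higher in cluster 6, where edgeR called 16.3% of 9794 genes higher and 12.1% lower. Krt15 was the exception. It stood at 18.9 and 24.0 CPM in cluster 13, so that cluster 6 was above it in mouse 1 and below it in mouse 2 (log2 fold change 0.90, SE 0.41, adjusted p = 0.11 by edgeR's quasi-likelihood test). Without cells that carried fibroblast, pericyte, endothelial or leukocyte genes it passed, at 1.26 (adjusted p = 0.0040, edgeR). For the other 4, cluster 13 held 0 and 2.48 CPM of Krt5, 16.4 and 64.1 of Krt14, 21.3 and 0.827 of Krt17, and 2.46 and 2.90 of Trp63. With cluster 6 of mouse 2 left out no gene passed in this comparison (3053 at an unadjusted p under 0.05), and without cluster 6 of mouse 1 Krt14 and Krt17 missed the threshold (adjusted p = 0.052 and 0.082, edgeR).

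Other genes of the basal layer were read from lists against the same other tumor cells, where the median log2 fold change of all genes was -0.060. Of hemidesmosome and basement membrane receptor genes, which anchor the keratin network to the matrix, 7 of 12 rose and 0 fell (median 1.10), led by Col17a1 at 7.30 (SE 0.46) and Lama3 at 5.73 (SE 0.46). Of the basal transcription factors, 6 of 10 rose and 1 fell (median 2.91), among them Snai2 at 5.85 (SE 0.41) and Mef2c at 5.07 (SE 0.28). Contractile genes rose in 9 of 11 (median 4.53) and other basal mammary markers in 8 of 11 (median 4.40), with 0 falls in either. Simple epithelial keratins fell in 4 of 5 (median -1.43), with Krt8 at -1.43 (SE 0.19), Krt18 at -1.62 (SE 0.21) and Krt19 at -1.92 (SE 0.17). Of the other stratified keratins 2 of 8 rose, Krt6a at 4.198 (SE 0.92) and Krt16 at 3.83 (SE 0.84), and Krt80 fell by 1.16 (SE 0.27). Desmosome genes gave 3 rises and 2 falls of 9 (median -0.06), and squamous differentiation genes 1 rise and 1 fall of 7 (median -0.59). Pan-luminal genes fell in 8 of 9 (median -1.49) and luminal progenitor genes in 7 of 10 (median -1.10), among them Elf5 at -2.29 (SE 0.25), with 0 rises. Mature luminal genes gave 1 rise and 2 falls of 9 (median 0.15), hair follicle and skin genes 2 rises of 4, proliferation genes 7 falls of 10 (median -1.64), and immediate early and heat shock genes 2 falls of 10.

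Markers of other cell types moved with the members in that comparison. All 10 fibroblast genes rose (median 9.85), and their summed level was 1557 and 3238 CPM in cluster 6 against 5.22 and 4.93. All 7 endothelial genes rose (39.3 and 423 CPM against 2.13 and 4.85), as did 3 of 6 pericyte genes (27.6 and 304 against 17.04 and 37.3). Leukocyte genes gave 2 rises and 1 fall of 9 (35.5 and 113 CPM against 38.0 and 174), and 0 of 4 Schwann cell genes passed. The list counts of the basal layer given before include the cells that carry these genes, and their part in those counts was not tested. Without the cells that carried 3 or more genes of the fibroblast, pericyte, endothelial or leukocyte lists, the log2 fold changes were 11.2 for Krt5, 5.53 for Krt14, 3.31 for Krt15, 5.31 for Krt17 and 4.27 for Trp63, each larger than with them.

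Outside cluster 6, in 3569 cells of mouse 1 and 5163 of mouse 2, Krt14 was the member that differed most between the mice. It had 513 UMIs in mouse 1 and 3293 in mouse 2, or 9.29 and 59.5 CPM. Krt17 had 14.03 and 21.7 CPM (775 and 1201 UMIs). Krt15 went the other way, with 9.36 and 4.08 CPM (517 and 226 UMIs), and so did Trp63, with 3.01 and 1.79 CPM (166 and 99 UMIs). Krt5 had 2 UMIs in 2 cells of mouse 1 and 12 UMIs in 8 cells of mouse 2. The level in cluster 6 over that outside it was 79.9 and 19.2 for Krt14, 57.5 and 19.1 for Krt17, 10.0 and 30.6 for Trp63, and 9.86 and 4.47 for Krt15.

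Krt14 was higher in mouse 2 in 16 of the 17 clusters other than 6 and equal in the remaining 1, cluster 7, at 0. Its median over these clusters was 1.81 CPM in mouse 1 and 50.3 CPM in mouse 2. In cluster 2 it had no UMI in mouse 1 and 85.0 CPM in mouse 2, in cluster 12 it stood at 3.67 and 205 CPM, and in cluster 0, the largest, at 21.1 and 83.1 CPM. Cluster 10 was unlike these, with 110.1 and 114.1 CPM. The other members showed no such shift. Krt17 was higher in mouse 2 in 5 of 17 clusters and lower in 12, Krt15 in 4 and 12, and Trp63 in 10 and 5. With 1 library per mouse, a difference between the mice cannot be told apart from one between the libraries.

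The share of cells with Krt14 outside cluster 6 was 2.13% in mouse 1 and 8.75% in mouse 2, although mouse 2 was sequenced to a lower depth per cell. At 2000 UMIs per cell, with shallower cells left out (3092 and 4316 cells kept), it was 1.13% (0.790 to 1.57%) and 5.24% (4.59 to 5.94%). Cluster 1, the shallowest, kept only 77 of 345 and 76 of 501 cells. Krt17 was found in 3.45% and 2.89% of cells before thinning and in 1.46% (1.06 to 1.94%) and 1.51% (1.16 to 1.92%) after it, so its shares were close in the 2 mice. Thinned shares were 0.938% and 0.510% for Krt15 and 0.485% and 0.463% for Trp63. By cluster, thinned Krt14 ran up to 6.25% in cluster 10 of mouse 1 and 9.66% in cluster 12 of mouse 2. Thinned Krt17 was highest in cluster 10 in both mice, at 6.25% and 5.62%.

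Cluster 10 held the highest Krt17 outside cluster 6 in both mice, at 127 and 103 CPM, followed by cluster 12 at 81.7 and 33.2 CPM. Without the cell of highest count in each sum these were 65.0 and 78.7 CPM in cluster 10 and 33.1 and 15.9 CPM in cluster 12. Krt15 was highest in cluster 10 of mouse 1 only through 1 cell, which held all 79 of its UMIs there. Clusters 13 (18.9 and 24.0 CPM) and 3 (17.9 and 12.2 CPM) had Krt15 in both mice, and without the top cell of each sum they held 5.74 and 16.5 CPM, and 11.99 and 4.29 CPM. Trp63 was highest in clusters 15 (7.99 and 16.97 CPM), 9 (11.4 and 4.19) and 11 (6.11 and 8.67), where Krt5 stayed at or below 0.867 CPM. Without the top cell of each sum these were 4.70 and 6.79, 4.99 and 2.99, and 3.66 and 5.20 CPM. With all cells the Trp63 levels rest on few UMIs, from 5 in cluster 11 of mouse 1 to 34 in cluster 15 of mouse 1. Cluster 15 of mouse 2 held only 17 cells. Cluster 7 had no UMI of Krt5, Krt14 or Krt15 in either mouse, over 315 and 89 cells, which allows up to 0.553 and 3.00 CPM by the limit of 3 counts (exact upper bounds 0.681 and 3.69 CPM), and it had 3.14 and 4.002 CPM of Trp63.

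Free RNA was gauged in cell barcodes without annotation that carried UMIs of at least 3 leukocyte genes and fewer than 3 pan-luminal genes. The rule leaves out barcodes with 3 or more of those luminal genes, so it may understate the free RNA of tumor cells. Of 24 such barcodes in mouse 1, with a median of 5419 UMIs, 0 held a UMI of any member, which allows a share of up to 12.5% by the limit of 3 counts (exact upper bound 14.2%). Of 182 in mouse 2, with a median of 2785.5 UMIs, 1 held a single Krt14 UMI (0.549%, 0.0139 to 3.02%) and 0 held Krt5, Krt15, Krt17 or Trp63 (up to 1.65% by the limit of 3 counts, exact upper bound 2.01%). At 2000 UMIs, the Krt14 share there was 0.862% (0.0218 to 4.71%), against 5.24% in annotated cells outside cluster 6 of mouse 2. The interval of the annotated cells, given above, overlaps that of these barcodes. The thinned shares of Krt17, Krt15 and Trp63 outside cluster 6 lie below the limit that these barcodes allow. The Krt14 share of mouse 1 (1.13%) also lies below it, so for Krt14 only mouse 2 gives a comparison.

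The UMIs outside cluster 6 were also concentrated in few cells. Cells with 5 or more Krt14 UMIs numbered 24 in mouse 1, in 5 of the 17 clusters, and 161 in mouse 2, in 14 of them, with up to 35 and 79 UMIs in a cell. For Krt17 there were 32 and 48 such cells with 80.8% and 86.5% of the UMIs, and a single cell of cluster 2 in mouse 2 held 155 UMIs. Trp63 reached 5 UMIs in 5 cells and 1 cell. Every Krt14-rich and Krt17-rich cell outside cluster 6 also had Krt8 or Krt18, and 0 of them carried 3 fibroblast genes. Their median Krt8 count was 99 and 79 UMIs for Krt14-rich cells, against 55 and 47 in cells without Krt14, and 114.5 and 125.5 for Krt17-rich cells, against 55 and 49. Median depth was 10272 and 11138 UMIs in Krt14-rich cells, against 15339 and 9323 in cells without Krt14. In Krt17-rich cells it was 16848 and 13585.5 UMIs, against 15155 and 9447 in cells without Krt17. The Krt8 counts were not matched for depth or cluster.

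Nearly all of these cells lacked Krt5, as did nearly all other cells outside cluster 6. Of the Krt14-rich cells in cluster 6, 59.3% in mouse 1 (45.0 to 72.4%) and 35.7% in mouse 2 (23.4 to 49.6%) had a Krt5 UMI. Outside cluster 6 it was 0 of 24 (0 to 14.2%) and 1 of 161 (0.621%, 0.0157 to 3.41%), against 0.0573% and 0.127% of cells there without Krt14. The lack of Krt5 is therefore not particular to Krt14-rich cells. The clusters were also made from the same expression values, so this contrast was partly set by the clustering. Krt17 was found in 92.6% (82.1 to 97.9%) and 60.7% of Krt14-rich cells in cluster 6, and outside it in 33.3% (15.6 to 55.3%) and 18.01% (12.4 to 24.8%). Trp63 was found in 35.2% and 25% inside and in 12.5% and 4.35% outside. Krt17-rich cells repeated this, with Krt5 in 51.4% and 62.5% inside and in 0 of 32 and 0 of 48 outside. UMIs of 3 or more contractile genes were found in 45.8% and 39.1% of Krt14-rich cells outside cluster 6, against 30.7% and 23.6% of cells without Krt14. The authors' basal signature score, from 0 to 1, averaged 0.437 and 0.359 in them against 0.190 and 0.169, and 0.759 and 0.715 in Krt17-rich cells against 0.185 and 0.167. Whether that signature counts these keratins was not checked here.

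**Figure D3:**
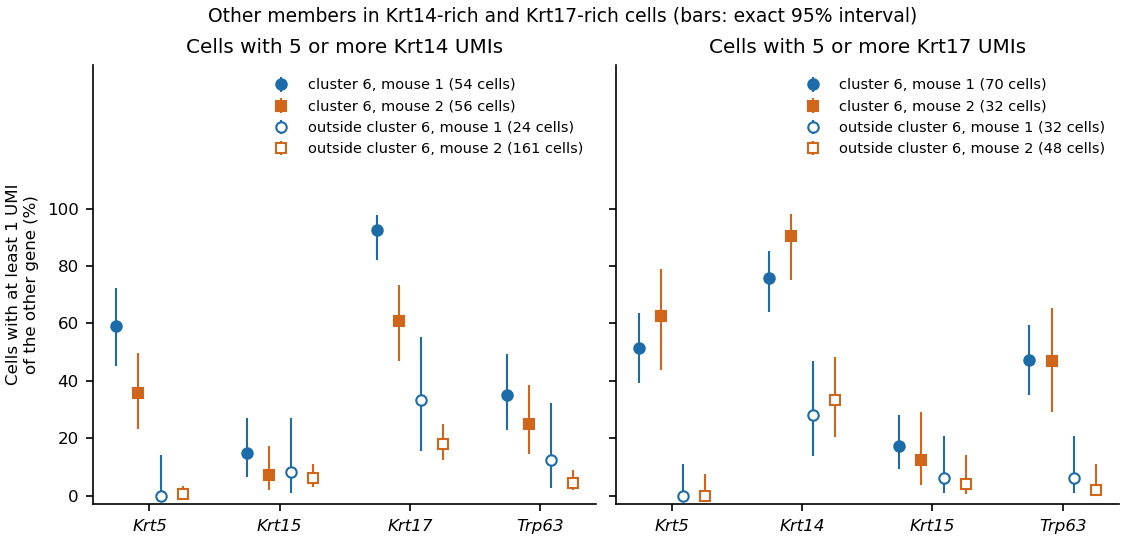
Share of cells with at least 1 UMI of another member (percent, exact 95% intervals for counting error) among Krt14-rich cells (left) and Krt17-rich cells (right), those with 5 or more UMIs, in cluster 6 (filled) and outside it (open), for mouse 1 (circles) and mouse 2 (squares). Krt5 is found in 59.3% and 35.7% of Krt14-rich cells in cluster 6 and in 0% and 0.621% of those outside.

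The plot of other members in Krt14-rich and Krt17-rich cells compares cells that differ in depth and in how strongly they express the gene, and the shares are a description with no test over cells.

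To ask what else went with Krt14 outside cluster 6, cells thinned to 2000 UMIs were split by whether a Krt14 UMI was left. The 35 and 226 cells with one were set against 105 and 678 cells without, drawn within the same mouse and cluster. Summed per mouse and tested with edgeR's quasi-likelihood test, 22 of 4325 genes were higher (0.509%) and 7 lower (0.162%). Krt17 was the only other member with enough UMIs to be tested, and it had the largest log2 fold change, 4.21 (SE 0.43, adjusted p = 8.8e-19, edgeR). In mouse 1 it had 42 UMIs in the Krt14 cells and 0 in the others, and in mouse 2 it had 22 and 10, or 48.7 and 7.37 CPM. The UMIs came from 9 cells in each mouse, with 20 and 12 in the top cell. The size of the change depended on the cells used, with 2.68 for another seed, 2.33 without the deepest cells, 3.22 with all other cells and 8.91 without the other cells of mouse 2. Another seed also redrew the thinning, which left 28 and 213 Krt14 cells. Without the deepest cells there were 33 and 211. DESeq2 gave Krt17 an adjusted p of 1, and it missed the threshold in edgeR without the mouse block (0.53) and without the Krt14 cells of mouse 1 (0.30). By cell, Krt17 was in 25.7% of Krt14 cells (12.5 to 43.3%) in mouse 1 and 3.98% (1.84 to 7.42%) in mouse 2. It was in 1.18% and 1.37% of all 3057 and 4090 thinned cells without Krt14 outside cluster 6. These are not only the drawn cells and are not matched by cluster.

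Besides Krt17, 21 genes were called higher with Krt14. Hp, which encodes haptoglobin, had 200.3 and 208 CPM in Krt14 cells against 28.6 and 62.7 in the others (log2 fold change 1.93, SE 0.31, adjusted p = 1e-06, edgeR). Wfdc12, a whey acidic protein family gene, rose by 2.39 (SE 0.54), the chemokine gene Cxcl2 by 1.54 (SE 0.25), the small heat shock gene Cryab by 1.58 (SE 0.29) and the lactoferrin gene Ltf by 1.33 (SE 0.28). Tpm2, a tropomyosin and the only contractile gene of 3 tested to pass, rose by 1.44 (SE 0.31). Of 10 luminal progenitor genes 3 rose, Aldh1a3 by 1.76 (SE 0.31), Ltf and Cd14, and of 3 squamous differentiation genes 2 rose, Sprr1a by 1.79 (SE 0.46) and Dmkn by 1.12 (SE 0.31). Emid1, Arg1, Scgb2b27 and the water channel gene Aqp5 had log2 fold changes of -1.47, -1.43, -1.21 and -1.14, and Dcpp3 had 0 UMIs in Krt14 cells against 16 and 50. In the 12 other lists with a tested gene none passed in this comparison, Krt8 at 0.22 and Krt18 at 0.34 included. DESeq2 called 0 genes here (31 at an unadjusted p under 0.05), and edgeR without the mouse block called 0 (96 at an unadjusted p under 0.05).

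The same split by Krt17 set 45 and 65 cells against 135 and 195. Of 3095 genes, edgeR called 15 higher (0.485%) and 7 lower (0.226%). Krt14 was again the member tested, with 24 and 42 UMIs in Krt17 cells and 27 and 38 in the others, whose cells were 3 times as many (log2 fold change 1.57, SE 0.30, adjusted p = 0.0081, edgeR). These UMIs also came from 9 cells in each mouse. The log2 fold change was 2.41 with another seed, 2.79 with all other cells as controls and 3.02 with at least 2 Krt17 UMIs required, the last chosen after seeing the data. It missed the threshold in 6 of 13 alternatives, with an adjusted p of 1 in DESeq2, 0.45 without the mouse block and 0.17 without the Krt17 cells of mouse 2. It also missed it without the other cells of mouse 1 (0.077), without those of mouse 2 (0.10) and without cluster 13 (0.12). By cell, Krt14 was in 20% of Krt17 cells in mouse 1 and 13.8% in mouse 2. It was in 0.853% and 5.10% of all 3047 and 4251 thinned cells without Krt17 outside cluster 6, which are not matched by cluster. These 2 splits draw their control cells from the same pool.

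Besides Krt14, 14 genes were called higher with Krt17. Tagln, which encodes the actin-binding protein transgelin, had 245 and 177 CPM against 37.0 and 5.13 (log2 fold change 3.44, SE 0.47, adjusted p = 0.00033, edgeR). With Tpm2 at 2.21 (SE 0.48), 2 of 4 contractile genes rose. The platelet-derived growth factor gene Pdgfb rose by 2.65 (SE 0.45), the placental growth factor gene Pgf by 1.55 (SE 0.31), Apoe by 3.17 (SE 0.52), Klf4 by 1.65 (SE 0.30) and Aldh1a3 by 1.93 (SE 0.42). Il24 had 14 and 7 UMIs in Krt17 cells against 1 and 0. The milk protein gene Lalba, with 11.1 and 92.4 CPM against 237 and 292, had a log2 fold change of -2.25 (SE 0.41), and Scgb2b27 had -2.15 (SE 0.26). Of 10 luminal progenitor genes Csn3 and Trf fell, by 0.60 and 0.62, and Aldh1a3 rose. Krt7 was the only simple keratin of 5, and the only pan-luminal gene of 9, to rise, by 0.84 (SE 0.18). Apoe was the only other basal marker of 3 to pass, and none passed in the 10 remaining lists with a tested gene. Without cluster 13, edgeR called 0 genes with Krt17 (228 at an unadjusted p under 0.05).

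**Figure D4:**
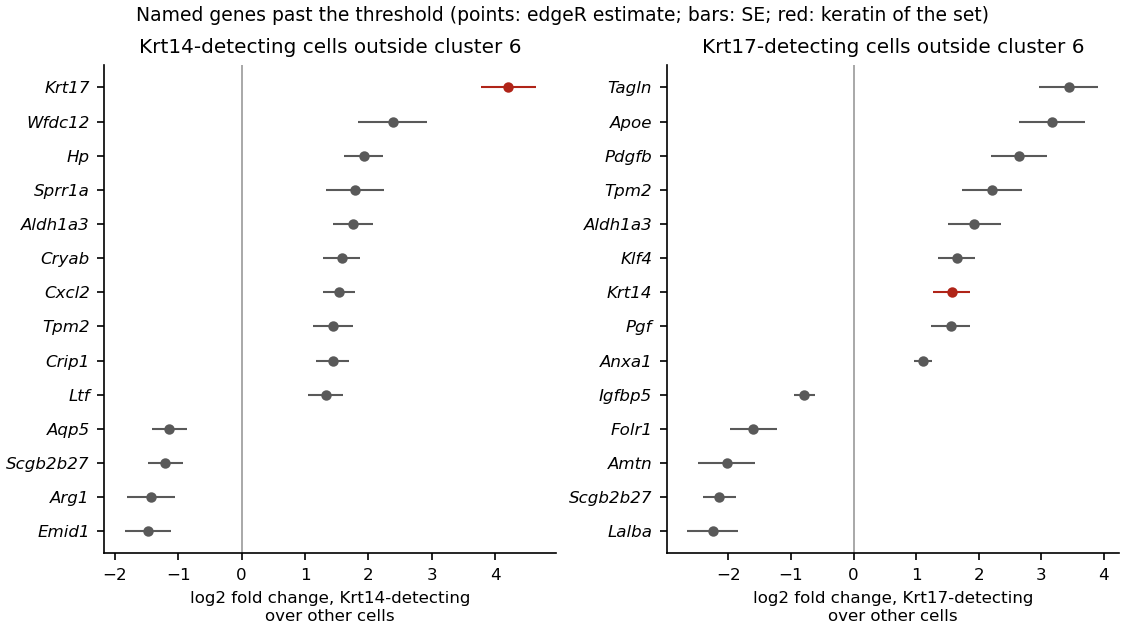
Log2 fold change (edgeR estimate, bars are SE) of the named genes past the threshold in Krt14-detecting (left) and Krt17-detecting (right) cells outside cluster 6 against other cells of the same mouse and cluster, with Krt17 and Krt14 in red. Krt17 leads on the left at 4.21 and Tagln on the right at 3.44, where Krt14 stands at 1.57.

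The plot of genes in Krt14-detecting and Krt17-detecting cells leaves out Dcpp3 and Il24, whose UMIs are given above.

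Over the 36 sums of mouse and cluster, the genes most like each member on the scale log2(CPM + 5) were sought among 5747 genes with at least 50 CPM in a sum. Points share libraries and differ in depth, so Pearson's r is a description. Krt5 was closest to Lum (r = 0.993), Igfbp3, Vcam1, Col3a1 and Il6, of which Lum and Col3a1 are fibroblast genes. Krt5 stood at 2.48 CPM or less in every sum outside cluster 6, so its r rests on the sums of that cluster. Within cluster 6 of mouse 1 the cells with 3 or more fibroblast genes held 0 Krt5 UMIs, and in mouse 2 Krt5 stood at 187 CPM in such cells and 155 CPM in the others. Trp63 was closest to Fstl1 (0.886) and Cd302. Krt14 was closest to the laminin gene Lamb3 (0.808), Efnb1 (0.779) and Lama3 (0.758), and Krt17 to Pdgfb (0.757), the gap junction gene Gja1 (0.729) and Tagln (0.718). Krt15 was closest to Prss23 and Inhba (0.674). Krt14 and Krt17 had an r of 0.705 over the 36 sums and 0.511 over the 34 sums outside cluster 6, where Stk38l (0.707) and Efnb1 (0.687) were closest to Krt14, and Npepps (0.640) and Krt80 (0.631) to Krt17.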

How the data were processed

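Per the deposited files, the matrices hold UMI counts, unnormalized, of 32285 genes in every barcode taken for a cell. The submitters' processing notes name Cell Ranger 6.0.1, mm10 and Seurat 4.0.3. The authors removed doublets with scDblFinder and cells of low quality, integrated and clustered both mice together, removed leukocyte clusters and clustered again. Their deposited annotation gives each cell's cluster, its mitochondrial fraction of UMIs and a basal signature score. The fraction described cells and barcodes only, and barcodes without annotation entered no comparison. Promoters come from a RefSeq table of GRCm38.p6, in which 1 of the 5 members had an entry at its gene start.

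Genes were joined by Ensembl ID (38 symbols have more than 1) and placed by GENCODE annotation of GRCm38. UMIs were summed per mouse and cell group, since cells of 1 mouse are not replicates. With only 2 mice, p-values rest largely on dispersion that edgeR shares across genes, so they measure the spread of 1 gene between mice poorly. edgeR 4.0.16 (limma 3.58.1, R 4.3.3) was run with filterByExpr, TMM, the mouse as a block in a quasi-likelihood fit, and Benjamini-Hochberg adjustment at 0.05 over all genes tested. The mouse is the animal, so the pairing is given by the design. As a check, the difference between the mice in 1 group had a Pearson r across genes with that in the other of 0.143 (cluster 13), 0.437 (other tumor cells), 0.165 (Krt14 split) and 0.277 (Krt17 split). For the splits outside cluster 6, cells were thinned to 2000 UMIs without replacement (random seed 1). Cells with fewer UMIs were left out of these splits and of all thinned shares. Then 3 cells without the gene were drawn per cell with it, and the splitting gene was left out of the test. Scripts were tested on simulated data. DESeq2 1.42.0 was an alternative. Python 3.11.15, numpy 2.4.6, scipy 1.17.1, pandas 2.3.3 and matplotlib 3.10.9 did the rest.

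The members and the gene lists were chosen with earlier results of these data known. The 19 lists are short sets of textbook genes: other stratified keratins, simple epithelial keratins, hemidesmosome, desmosome, squamous differentiation, basal transcription factor, contractile, other basal, hair follicle and skin, pan-luminal, mature luminal, luminal progenitor, fibroblast, pericyte, endothelial, Schwann cell, leukocyte, proliferation, and immediate early and heat shock genes. The simple keratins Krt7, Krt8, Krt18 and Krt19 are also in the pan-luminal list. Genes named are the members; up to 4 per list, by size of change among genes that passed, or the 2 with most counts where none did; in the splits, the 10 largest rises and 5 largest falls that both mice shared and that reached 50 CPM; and the 5 genes most like each member, not all of which are printed. Alternatives changed the thinning, normalization, filter, test, control cells, block, and cells or sums left out.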

Additional observations from a re-analysis of the deposited data

Results flagged for a closer look

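Barcodes without annotation, which no comparison used, held UMIs of 4 of the 5 genes above the limit that a count of 3 sets. In the 2346 such barcodes of mouse 1, with 4510440 UMIs and a median mitochondrial share of 85.7%, Krt14 stood at 5.76 CPM, Krt15 at 2.66, Krt17 at 3.77 and Trp63 at 2.88. In the 2208 of mouse 2, with 4557239 UMIs and a median mitochondrial share of 72.4%, Krt14 stood at 6.8 CPM, Krt15 at 0.878, Krt17 at 2.63 and Trp63 at 1.97. In mouse 1, 1 barcode held 65.4% of the Krt14 UMIs and 1 held 50% of the Krt15 UMIs. Without the top barcode Krt14 stood at 2.00 CPM in mouse 1 and 5.49 CPM in mouse 2.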

How the results depend on the processing

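Shares of cells with a UMI moved with depth, and each thinning left out the cells with fewer UMIs. Krt14 outside cluster 6 was at 2.13% in mouse 1 without thinning, and in mouse 2 at 3.47%, 7.21% and 8.75% with 1000 UMIs, 5000 UMIs and no thinning. Krt17 outside cluster 6 was at 0.930%, 1.97% and 3.45% in mouse 1 and at 0.996%, 2.23% and 2.89% in mouse 2 under the same settings, and Krt14 in cluster 6 of mouse 1 at 29.2% with 5000 UMIs and 29.6% without thinning.

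The number of genes called moved more than the members' directions. With cluster 13 it was 2782, 979 with thinned cells, 1117 with DESeq2 and 0 to 1387 when 1 sum was left out. With the other tumor cells it was 2693, 1210 with thinned cells, 967 with no replicate block and 525 to 973 when 1 sum was left out. With the Krt14 split it was 29, 59 with all other cells as controls, 0 with DESeq2 and with no replicate block, 12 without cluster 13 and 6 to 67 when 1 sum was left out. With the Krt17 split it was 22, 111 with all other cells, 11 with DESeq2 size factors (9 higher and 2 lower, against 15 and 7), 3 with DESeq2, 44 with no filter, 0 with no replicate block, 53 with another seed, 0 without cluster 13, 49 without the deepest cells and 13 to 26 when 1 sum was left out. Requiring at least 2 UMIs of the gene, an alternative chosen after seeing the data, gave 31 and 25 calls. Fits with 1 sum left out had no pairing and assume that the lone sum varies like the other group.

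The replicate block, which follows the animal, changed the call of Krt15 against the other tumor cells and of Krt17 and Krt14 in the splits, and of no other member. Only Krt15 against cluster 13 turned direction, to -0.37 (adjusted p = 0.51, edgeR) without cluster 6 of mouse 1, and it ran up to 2.01 without cluster 6 of mouse 2. Krt5, Krt17 and Trp63 against the other tumor cells kept direction and call in all 10 alternatives. Across alternatives, the log2 fold change against the other tumor cells ran from 9.84 to 11.85 for Krt5, 3.97 to 6.65 for Krt14, 1.43 to 4.17 for Krt15, 4.39 to 5.45 for Krt17 and 3.63 to 4.57 for Trp63, that of Krt17 in the Krt14 split from 2.33 to 8.91, and that of Krt14 in the Krt17 split from 1.39 to 3.02. Depth limited Trp63 most, at 2.02 UMIs per detecting cell of cluster 6 in mouse 1.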

Other observations

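Against cluster 13, the lists moved unlike they did against the other tumor cells in some cases, and the difference itself was not tested, since both comparisons share the sums of cluster 6. Over all genes tested 16.3% were higher and 12.1% lower. Of the other stratified keratins 0 rose and 5 of 7 fell in cluster 6 (Krt4, Krt6a, Krt78, Krt79 and Krt80), and their summed level was 254 and 96.8 CPM in cluster 6 against 739 and 882 CPM in cluster 13. Luminal progenitor genes rose in 6 of 9, and mature luminal genes fell in 8 of 9 (median log2 fold change -4.03). Hemidesmosome genes gave 5 rises and 1 fall of 12, basal transcription factors 6 rises and 2 falls of 9, contractile genes 10 rises of 11 and other basal markers 9 rises of 9. Simple keratins fell in 4 of 5. Markers of other cell types moved in the same comparison: fibroblast genes rose in 9 of 10 (1557 and 3238 CPM in cluster 6 against 39.4 and 324 CPM), endothelial genes in 3 of 4 and leukocyte genes in 2 of 2. Immediate early and heat shock genes fell in 6 of 10. The part of these in the counts above was not tested.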
